A study of Homo sapiens with 9 samples.

Results

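The genes described here encode the proteins of the mitochondrial ribosome, taken as the protein-coding genes whose symbol is MRPL or MRPS followed by a number. They numbered 78 of the 61487 genes in the count table, 49 named for the large subunit (MRPL) and 29 for the small subunit (MRPS). RNA was sequenced from 9 libraries of OVCAR4, an established high-grade serous ovarian cancer line, which fell into 3 groups of 3. Naive cells received the solvent DMSO, Pt-resistant cells, an isogenic derivative obtained under continuous platinum exposure, received DMSO, and the third group was Pt-resistant cells under EPZ015666, an inhibitor of the arginine methyltransferase PRMT5, at 5 uM for 5 days. The libraries came from wells seeded in triplicate from 1 naive line and 1 resistant line, so a p-value speaks of well-to-well variation that could be technical, and resistance cannot be told apart from other differences between these lines.

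The mitochondrial ribosome translates the few mRNAs that the mitochondrial genome encodes, which specify core subunits of the respiratory chain and the ATP synthase. Its ribosomal RNAs are transcribed inside the organelle, while all of its proteins are encoded in the nucleus and imported. Part of these proteins have bacterial homologues and the others were gained in the mitochondrial lineage, where they replace lost RNA or line new surfaces of the particle.

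Library totals ran from 14320929 to 19114811 counts, and 77 of the 78 members passed the filter on low counts. Levels are given as CPM, the counts relative to the TMM-scaled library total. The median coefficient of variation of a tested member within a group was 6.73%. The epithelial markers PAX8, MUC16, EPCAM, KRT7, KRT8, KRT18 and KRT19 were present, with PAX8 at 134 CPM in naive cells, while WT1 was at 0.25 CPM. CD3E, CD68, COL3A1 and PDGFRB stayed below 1 CPM in every group mean and PTPRC reached 1.10 CPM in treated cells, whereas the endothelial marker PECAM1 was at 95.4 CPM in naive cells. The same marker list also held VWF and COL1A1, which count in the sums that follow. Summed over 8 markers each, the epithelial list was at 4144 to 4427 CPM in naive, 3965 to 4095 in Pt-resistant and 3259 to 3319 in treated cells, and the immune, endothelial and fibroblast list at 102 to 108.3, 59.15 to 66.22 and 52.28 to 63.87 CPM. Of the 8 epithelial markers 7 were tested, and 1 was called higher and 5 lower in Pt-resistant than in naive cells. With inhibitor 2 of the 7 were called higher and 4 lower. Of the 8 immune, endothelial and fibroblast markers 4 were tested, and all 4 were called lower in Pt-resistant than in naive cells. With inhibitor 2 of the 4 were called higher, both by 2-fold or more, and 1 lower. The log2 fold changes of these 4 ran from -2.76 to -0.73 in Pt-resistant against naive cells and from -0.40 to 4.64 with inhibitor. Among all genes tested 59.1% and 62.4% were called in these 2 comparisons. The part of these marker differences in the results on the members was not tested. PRMT5 mRNA was at 121, 117 and 117 CPM in naive, Pt-resistant and treated cells, and no comparison called it.

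The members together took 0.504% ± 0.0101 of all counts in naive cells, 0.558% ± 0.0212 in Pt-resistant cells and 0.499% ± 0.02 in treated cells (SD, n = 3). The summed CPM of the MRPL genes were 3084, 3039 and 3248 in the naive libraries, 3278, 3667 and 3451 in the Pt-resistant libraries and 3349, 3081 and 3299 in the treated libraries. All Pt-resistant libraries lay above all naive ones, and the treated libraries overlapped both groups. For the MRPS genes the sums were 1811, 1807 and 1853 in naive, 2055, 2198 and 2079 in Pt-resistant and 1923, 1824 and 1851 in treated cells. Here the Pt-resistant libraries stood above every library of the other groups. In bulk RNA such a level cannot tell fewer cells that express a gene from less RNA per cell.

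The ratio of the MRPL sum to the MRPS sum compares the subunits within each library. It was 1.71 ± 0.0365 in naive, 1.64 ± 0.0404 in Pt-resistant and 1.74 ± 0.0471 in treated cells (SD, n = 3). The Pt-resistant libraries, at 1.595 to 1.669, did not overlap the naive ones, at 1.682 to 1.753, or the treated ones, at 1.689 to 1.783. A ratio of sums weighs abundant members most, and MRPL3 went from a mean of 264.9 CPM in naive to 194.5 in Pt-resistant cells. Mean CPM per kb went from 53.7 to 61.3 (MRPL) and from 43.6 to 49.5 (MRPS), and median log2 fold changes were 0.21 and 0.18. These 2 measures showed no larger rise of the MRPS genes, and the part of MRPL3 in the ratio was not tested. MRPS30 and MRPS18A carry small subunit names although their proteins sit in the large subunit. Counted there, they gave ratios of 1.92, 1.85 and 1.91, and the ranges of Pt-resistant and treated cells then overlapped, with 1.875 the highest Pt-resistant value and 1.874 the lowest treated value. Naive libraries, at 1.901 to 1.964, still did not overlap the Pt-resistant ones, at 1.81 to 1.875.

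**Figure D1:**
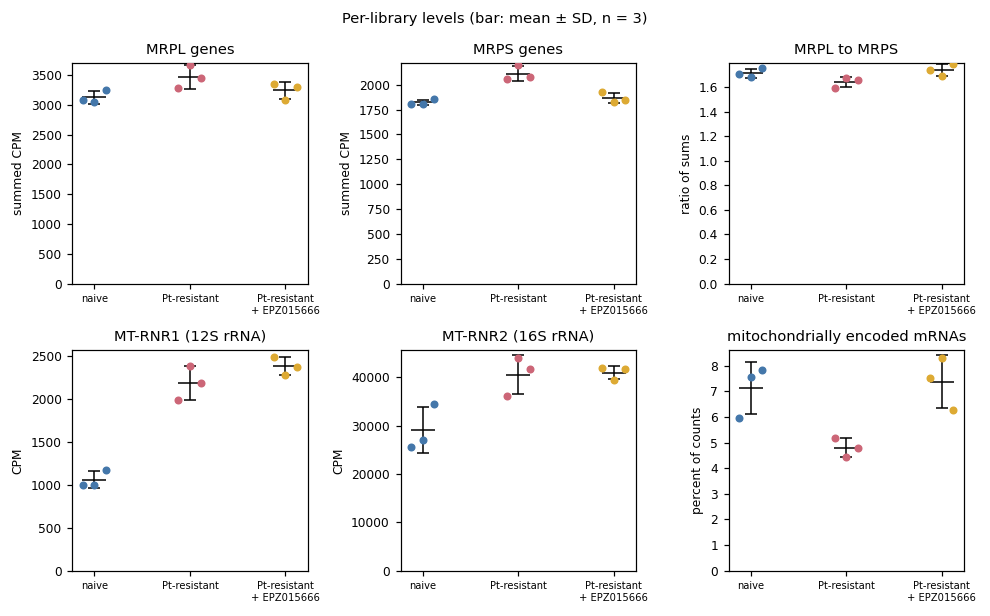
Level in each of the 9 libraries by group, for the summed CPM of the MRPL and MRPS genes, their ratio, the 2 mitochondrial rRNAs (CPM) and the mitochondrially encoded mRNAs (percent of counts). Points are libraries and bars the mean ± SD; the Pt-resistant libraries are highest for the MRPS sum, 2055 to 2198, and lowest for the encoded mRNAs.

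Levels between genes were compared per kilobase of transcript, the median length of the principal transcripts in GENCODE 29. In naive cells the highest large subunit members were MRPL3, at 155 ± 17.6 CPM per kb, MRPL42, at 134.5 ± 15.8, and MRPL33, at 130.3 ± 8.65 (SD, n = 3), neighbours that did not differ beyond their spread. The highest small subunit members were MRPS15, at 129 ± 4.32, MRPS33, at 120.2 ± 13.7, and MRPS22, at 105 ± 7.09 CPM per kb. Both MRPL3 and MRPS15 have bacterial homologues that bind ribosomal RNA directly.

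At the low end of the large subunit stood MRPL46 at 1.15, MRPL38 at 0.356 and MRPL53 at 0.0738 CPM per kb, and of the small subunit MRPS36 at 5.93, MRPS12 at 3.52 and MRPS24 at 0.886 CPM per kb. MRPL53 had 15 counts over all 9 libraries and was not tested. MRPS36 was counted as a member by its symbol, although its protein is known as a component of the oxoglutarate dehydrogenase complex.

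Several of the low members share their locus with another gene. A read that overlaps more than 1 gene is not counted by STAR's gene counts. In a stranded column this applies only to genes on the same strand, and the column used is not named. Exon sharing was measured in GENCODE 29, which may differ from the annotation used for the counts. MRPL53 shares 45.2% of its exon bases with CCDC142, MRPL38 37.5% with an unnamed gene on its strand, MRPS24 23.2% with the readthrough gene URGCP-MRPS24, and MRPS12 16.3% with SARS2 on the other strand. URGCP-MRPS24 and SARS2 were at 0 counts in all 9 libraries. The 26 members that share 10% or more, counting genes on either strand, had a median of 30.1 CPM per kb in naive cells, against 41.4 for the other 52. MRPL46, MRPL53, MRPL38, MRPS24 and MRPS12 all fall among the 26, yet so does MRPL33, one of the most abundant, and the part that sharing plays in these levels was not tested.

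**Figure D2:**
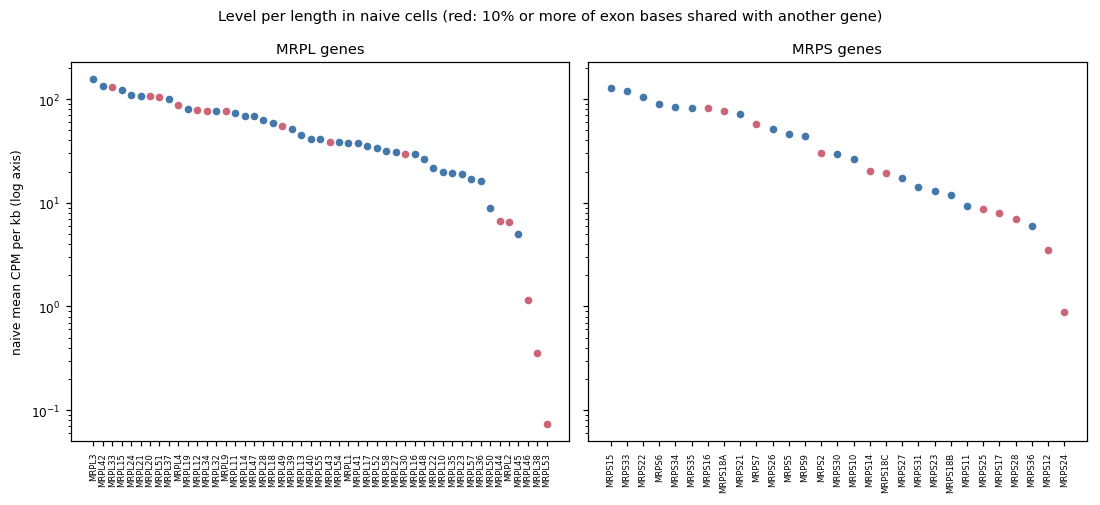
Mean level of each member in naive cells in CPM per kb on a log axis, ordered from high to low within the MRPL and the MRPS genes. Red points share 10% or more of their exon bases with another gene; MRPL53, at 0.0738, and MRPS24, at 0.886, are the lowest of each panel.

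Pt-resistant cells were compared with naive cells to see which members differ with platinum resistance. More members were higher than lower: 36 of 77 rose and 8 fell in edgeR's quasi-likelihood test, at a Benjamini-Hochberg adjusted p below 0.05. Among all 14630 genes tested, 29.8% were called higher, 29.4% lower and 59.1% in either direction, while of the members 46.8%, 10.4% and 57.1% were. The total share of members called was thus near the background and its split between directions was uneven. The median log2 fold change was 0.21 over the MRPL genes and 0.18 over the MRPS genes, against 0.01 over all genes tested. Large and small subunit gave like shares, with 23 higher and 5 lower of 48 MRPL genes and 13 higher and 3 lower of 29 MRPS genes. Groups did not overlap for 49 members, 63.6% of those tested, against 62.5% of all genes.

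Changes were small for most members, and 4 of 77 were called at 2-fold or more, all higher and all of the large subunit, where 15.9% of all genes tested were called at 2-fold or more in either direction. MRPL54, a protein of the mitochondrial lineage, was at 24.3, 21.9 and 26.3 CPM in naive and at 53.1, 58.7 and 53.5 CPM in Pt-resistant libraries. No Pt-resistant library came near the naive ones, and the log2 fold change was 1.19 ± 0.10 (SE, edgeR adjusted p = 2.2e-10). MRPL27, the homologue of a bacterial protein that reaches towards the peptidyl transferase centre, rose from 20.9, 23.1 and 22.7 to 45.1, 51.1 and 47.9 CPM. Its log2 fold change was 1.11 ± 0.10 (edgeR adjusted p = 9.18e-10).

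MRPL50, again a protein of the mitochondrial lineage, was at 27.4, 29.8 and 31.5 CPM in naive and 56.1, 65.1 and 68.2 CPM in Pt-resistant libraries, a log2 fold change of 1.10 ± 0.09 (edgeR adjusted p = 7.5e-10). MRPL58, which keeps the peptidyl-tRNA hydrolase activity used to rescue stalled ribosomes, was at 26.3, 29.1 and 29.7 CPM and at 62.6, 58.5 and 57.1 CPM, a log2 fold change of 1.07 ± 0.08 (edgeR adjusted p = 1.74e-10). In none of the 4 genes did the groups overlap. The next member, MRPS23 of the small subunit, went from 71.2, 72.2 and 78.2 to 123, 144 and 133 CPM, a log2 fold change of 0.85 ± 0.08 (edgeR adjusted p = 2.17e-09).

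The 4 members that more than doubled, chosen for their fold change, are shown with the bases before their RefSeq start. Promoter letters searched in this gene family can be seen there where present. Sequences are from RefSeq, GRCh38.p14, 5′ to 3′ on the gene's strand, 250 bases each, with capitals marking the ETS letters CCGGAAG on either strand.
MRPL54 (chr19:3762432-3762681, + strand): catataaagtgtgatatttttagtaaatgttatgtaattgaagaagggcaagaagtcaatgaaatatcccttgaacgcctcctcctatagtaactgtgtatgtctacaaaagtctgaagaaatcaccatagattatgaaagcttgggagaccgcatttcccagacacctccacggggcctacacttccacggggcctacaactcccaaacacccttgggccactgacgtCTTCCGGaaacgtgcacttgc
MRPL27 (chr17:50373185-50373434, - strand): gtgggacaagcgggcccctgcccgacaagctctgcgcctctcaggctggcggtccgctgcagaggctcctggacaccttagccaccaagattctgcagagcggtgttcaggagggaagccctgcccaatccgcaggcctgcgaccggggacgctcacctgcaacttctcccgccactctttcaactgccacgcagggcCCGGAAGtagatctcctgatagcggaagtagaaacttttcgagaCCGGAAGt
MRPL50 (chr9:101398619-101398868, - strand): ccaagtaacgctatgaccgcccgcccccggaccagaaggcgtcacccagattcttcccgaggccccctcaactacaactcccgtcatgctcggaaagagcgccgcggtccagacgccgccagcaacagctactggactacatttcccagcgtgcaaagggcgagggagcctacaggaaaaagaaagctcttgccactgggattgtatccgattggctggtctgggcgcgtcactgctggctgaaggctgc
MRPL58 (chr17:75012420-75012669, + strand): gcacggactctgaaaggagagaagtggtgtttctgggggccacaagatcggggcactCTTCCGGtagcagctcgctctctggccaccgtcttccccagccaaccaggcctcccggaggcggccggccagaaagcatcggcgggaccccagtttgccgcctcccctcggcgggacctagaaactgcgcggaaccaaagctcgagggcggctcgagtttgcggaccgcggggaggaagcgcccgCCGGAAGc
MRPL27 and MRPL58 held 2 copies each and MRPL54 held 1, while MRPL50 had none and instead held the YY1 letters AAGATGGC in the 50 bases after its start, which are not printed.

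Over the 69 members with a promoter in the RefSeq table, 6 motifs were searched on both strands in the 300 bases from 250 before to 50 after the start. ETS letters, the core bound by GABP and related factors, were in 29 of 69 windows, 42.0%, against 10.7% of all 27305 promoters and 19.1% of the promoters of tested protein-coding genes. The YY1 letters were in 20 windows, 28.99%, against 3.03% and 5.47%. MRPL and MRPS genes held them alike, with ETS in 40.5% and 44.4% and YY1 in 28.6% and 29.6%. NRF1 letters, GCGCATGC, were in 8.70% against 3.27% and 5.36%, and E-box letters, CACGTG, in 8.70% against 7.44% and 10.2%. CRE letters, TGACGTCA, and ATF4 letters, TGATGCAA, were in none of the 69 windows, against 1.98% and 0.923% of all promoters. In the promoters of tested protein-coding genes they were in 3.33% and 0.515%, so few or none would be found in 69 windows at those shares. Such matches describe letters and not binding.

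**Figure D3:**
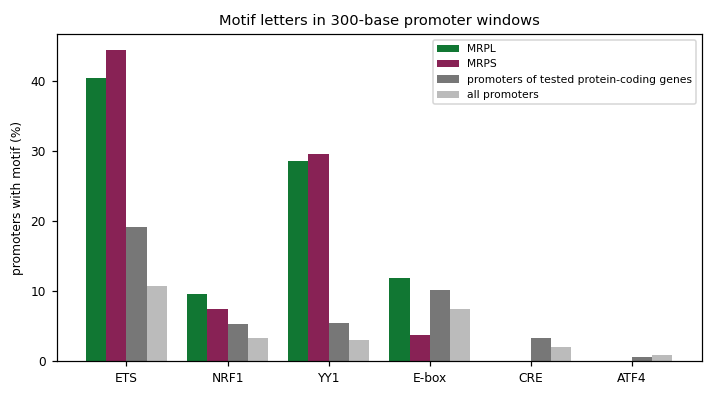
Share of 300-base promoter windows (percent) that hold each motif's letters on either strand, for the MRPL genes, the MRPS genes, tested protein-coding genes and all promoters. Bars start at 0; ETS reaches 40.5% and 44.4% in the 2 subunits against 10.7% of all promoters.

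Lower levels in Pt-resistant cells were found for 8 members, none by 2-fold. MRPS25, a small subunit protein of the mitochondrial lineage, was at 41.1, 40.8 and 37.0 CPM in naive and 29.8, 25.3 and 30.3 CPM in Pt-resistant libraries, a log2 fold change of -0.48 ± 0.09 (edgeR adjusted p = 9.53e-05). MRPL3, the most abundant member per length in naive cells, went from 242, 253 and 299 to 169, 219 and 195 CPM, with a log2 fold change of -0.44 ± 0.09 (edgeR adjusted p = 0.000222). Groups did not overlap in either gene, and MRPS25 shares 22.2% of its exon bases with NR2C2 on the other strand. MRPL43 (-0.29), MRPS27 (-0.29), a pentatricopeptide repeat protein, MRPL11 (-0.21), which forms the base of the stalk that binds GTPases, and MRPS34 (-0.19) also fell without overlap, while MRPL34 (-0.43) and MRPL9 (-0.23) fell with overlapping groups. The call for MRPL11 was lost when naive replicate 3 was left out (edgeR adjusted p = 0.114), and when Pt-resistant replicate 1 or 3 was (edgeR adjusted p = 0.0851 and 0.0572), and that for MRPL9 without naive replicate 1 or Pt-resistant replicate 3 (edgeR adjusted p = 0.16 and 0.106). The call for MRPS34 did not hold without naive replicate 1 or 3 or Pt-resistant replicate 2 or 3 (edgeR adjusted p = 0.0505 to 0.0893). Without Pt-resistant replicate 3 the number of members that fell was 5.

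By ancestry, with MRPS30 and MRPS18A counted in the large subunit and MRPS36 in neither class, 15 of 30 large subunit proteins with a bacterial homologue rose and 4 fell, and 9 of 20 tested without one rose and 1 fell. In the small subunit, 7 of 16 with a bacterial homologue rose and 0 fell, and 5 of 10 without one rose and 3 fell, against 29.8% and 29.4% of all genes tested. Their medians, 0.18, 0.22, 0.19 and 0.12 on the log2 scale, lay close together. Of the MRPS18 paralogs, which occupy different sites, MRPS18A (0.31), MRPS18C (0.42) and MRPS18B (0.24) all rose, although the call for MRPS18B was lost under DESeq2 (adjusted p = 0.102) and without naive replicate 1 or 2 or Pt-resistant replicate 1 or 3 (edgeR adjusted p = 0.104 to 0.168). MRPS18A and MRPS18C share 47.0% and 40.2% of their exon bases with genes on the other strand.

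**Figure D4:**
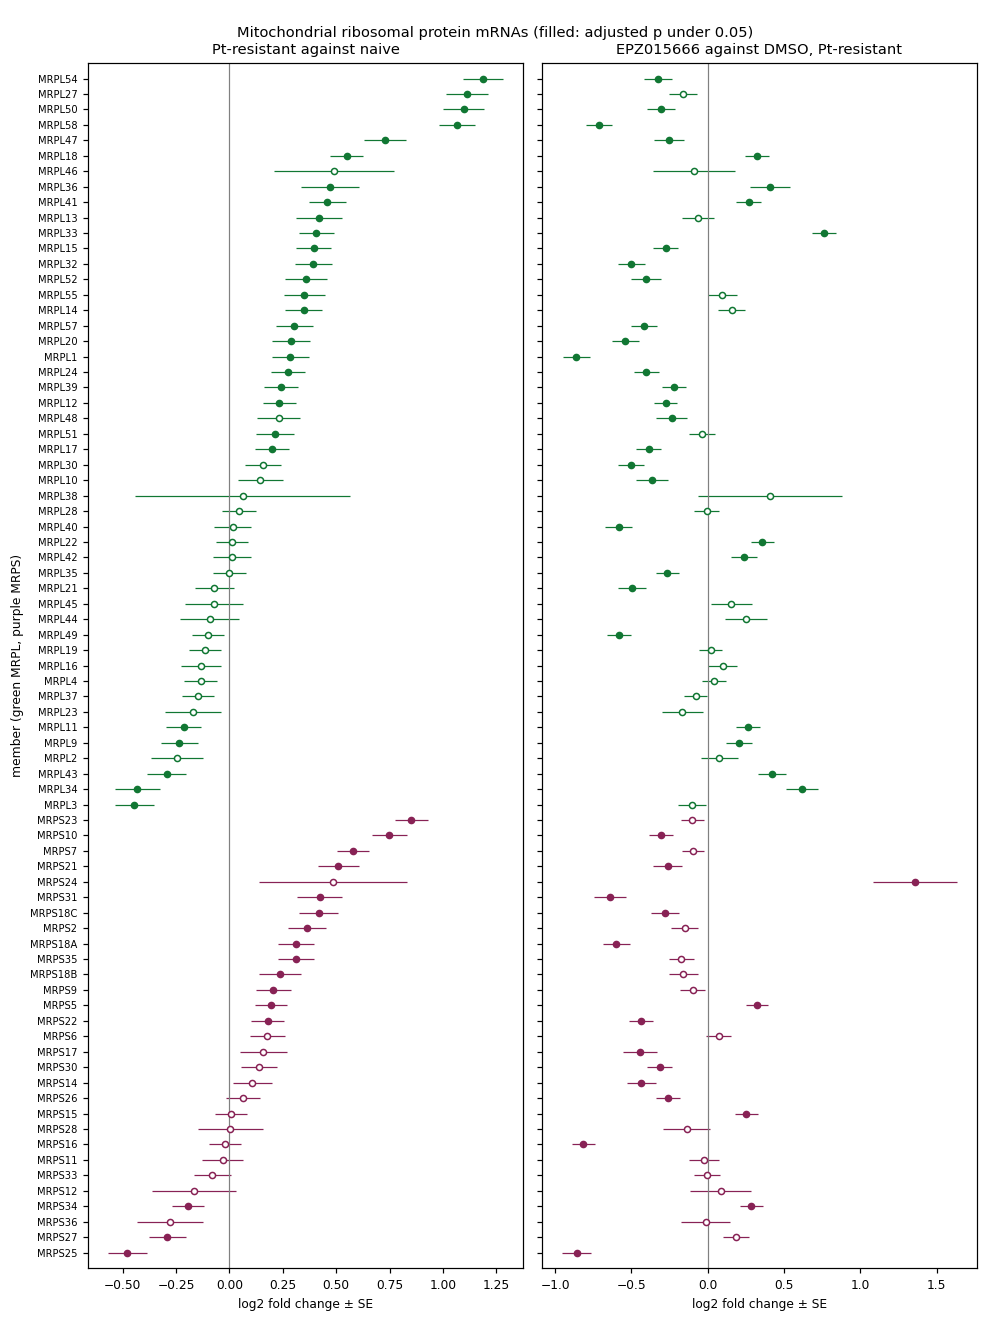
Log2 fold change ± SE of the 77 tested members, MRPL in green and MRPS in purple, for Pt-resistant against naive cells (left) and inhibitor against DMSO in Pt-resistant cells (right), in the order of the left panel. Filled points passed an adjusted p of 0.05; MRPL54, MRPL27, MRPL50 and MRPL58 lead on the left, and both panels share the Pt-resistant DMSO libraries.

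Treated and DMSO-treated Pt-resistant cells were compared to see how the members respond to the PRMT5 inhibitor. Here 33 of 77 members fell and 14 rose (edgeR quasi-likelihood test, adjusted p under 0.05). Among all genes tested 30.5% were called lower, 31.9% higher and 62.4% in either direction. The median log2 fold change was -0.10 over the MRPL genes and -0.15 over the MRPS genes, against 0.01 over all genes. Of the MRPL genes 21 fell and 10 rose, and of the MRPS genes 12 fell and 4 rose. Groups did not overlap for 43 members, 55.8%, against 66.5% of all genes. This comparison shares its DMSO libraries with the one above.

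The members that fell most were MRPL1, MRPS25, MRPS16, MRPL58 and MRPS31, none by 2-fold. MRPL1, the homologue of the bacterial protein of the mobile stalk beside the exit site, went from 62.9, 73.2 and 67.6 CPM in DMSO to 36.7, 34.1 and 41.3 CPM with inhibitor, a log2 fold change of -0.86 ± 0.09 (edgeR adjusted p = 1.4e-08). MRPS25 was at 15.9, 15.8 and 15.3 CPM with inhibitor, below the 25.3 to 30.3 CPM in DMSO, a log2 fold change of -0.86 ± 0.10 (edgeR adjusted p = 6.61e-08). MRPS16, a small subunit protein with a bacterial homologue, was not called between naive and Pt-resistant cells, at 205 to 224.5 and 206 to 213 CPM, and at 129, 117 and 113 CPM with inhibitor. Its log2 fold change was -0.82 ± 0.08 (edgeR adjusted p = 2.54e-09).

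MRPL58, which had more than doubled in Pt-resistant cells, was at 35.6, 37.4 and 35.7 CPM with inhibitor, between the naive and the Pt-resistant libraries, a log2 fold change of -0.71 ± 0.08 (edgeR adjusted p = 8.63e-08). MRPS31, a small subunit protein of the mitochondrial lineage, went from 26.3, 28.1 and 28.6 to 18.7, 17.2 and 17.3 CPM, a log2 fold change of -0.64 ± 0.11 (edgeR adjusted p = 1.38e-05). The other 3 members that had doubled moved less: MRPL54 by -0.33, MRPL50 by -0.31 and MRPL27 by -0.16, the last not called (adjusted p = 0.129 in edgeR).

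MRPL33 rose most among members above 5 CPM. This homologue of a small bacterial large subunit protein was at 88.9, 91.0 and 89.0 CPM in DMSO and 155, 139.5 and 161 CPM with inhibitor, a log2 fold change of 0.76 ± 0.08 (edgeR adjusted p = 1.28e-08). MRPL34, likewise a small protein with a bacterial homologue, was at 41.7, 51.0 and 44.3 CPM and then 74.3, 67.3 and 68.5 CPM, a log2 fold change of 0.62 ± 0.11 (edgeR adjusted p = 2.12e-05). MRPL43 (0.42), MRPL36 (0.41) and MRPL22 (0.36), which lines the exit tunnel, also rose without overlap. MRPS24 was the 1 member called at 2-fold or more, against 17.9% of all genes. It rose by 1.36 on the log2 scale from a low level, 0.902, 0.799 and 0.935 to 2.13, 2.34 and 2.32 CPM, and shares exons with a readthrough gene. MRPL33 shares 21.1% of its exon bases with BABAM2 and MRPL43 36.9% with genes on the other strand.

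**Figure D5:**
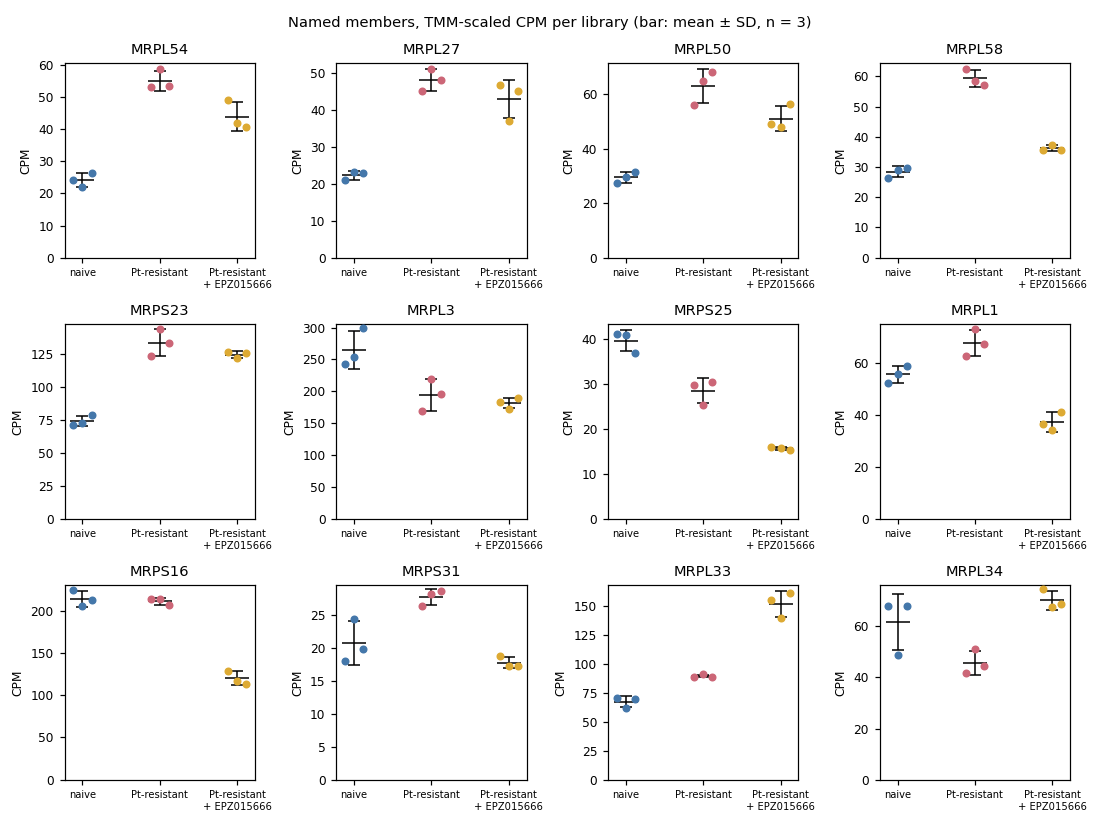
TMM-scaled CPM per library of 12 named members by group, with the mean ± SD (n = 3) and each axis starting at 0. MRPL58 lies near 36 CPM with inhibitor, between naive and Pt-resistant cells, while MRPL33 rises to between 139.5 and 161 CPM.

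By ancestry, in the same classes, 12 of 30 large subunit proteins with a bacterial homologue fell and 7 rose, and 11 of 20 without one fell and 3 rose. In the small subunit the counts were 6 lower and 3 higher of 16, and 4 lower and 1 higher of 10. Over all genes tested 30.5% were lower and 31.9% higher, and the shares called in either direction in the large subunit, 63.3% and 70%, were near the 62.4% of all genes. Members whose promoter window held the ETS letters had 16 lower and 3 higher of 28 tested, with a median log2 fold change of -0.26, and those whose window lacked them 13 lower and 11 higher of 40, with a median of -0.05, beside the same shares of all genes. In Pt-resistant against naive cells the same 2 groups had medians of 0.22 and 0.20. With inhibitor, the YY1 letters gave medians of -0.09 with (20 tested) and -0.13 without (48 tested). For NRF1 the medians were -0.33 (6 tested) and -0.10 (62 tested), and for the E-box 0.04 (6 tested) and -0.13 (62 tested). ETS was thus 1 of several motifs read, and the split was not made for genes other than the members. The differences between these groups of members were not tested.

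Treated Pt-resistant cells and naive cells differ in both platinum resistance and inhibitor, and this comparison shares its libraries with those above. Of the members 23 were higher and 18 lower, 29.9% and 23.4%, against 32.2% and 31.2% of all genes tested, where 63.4% were called in either direction. The medians were 0.03 for the MRPL and -0.06 for the MRPS genes, against 0.00 over all genes. Groups did not overlap for 43 members, 55.8%, against 66.4% of all genes. At 2-fold or more, MRPL33 and MRPS24 were called higher and MRPS25 lower, against 19.8% of all genes called. Among members at 5 CPM or more, MRPL33 stood highest above naive cells, where it was at 70.2, 62.4 and 70.0 CPM, with a log2 fold change of 1.17 ± 0.08 (edgeR adjusted p = 8.04e-12). MRPS25 stood lowest, with a log2 fold change of -1.34 ± 0.10 (edgeR adjusted p = 2.54e-11).

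MRPL27 (0.95), MRPL36 (0.88), MRPL18 (0.87), whose protein associates with RNA at the central protuberance, and MRPL54 (0.86) followed among the higher members. MRPS16 (-0.84), MRPL49 (-0.68), MRPL1 (-0.58) and MRPL40 (-0.57) followed among the lower ones. The bases before the start of MRPL33 and MRPS25, the highest and lowest members at 5 CPM or more in this comparison, are shown in the same form.
MRPL33 (chr2:27771469-27771718, + strand): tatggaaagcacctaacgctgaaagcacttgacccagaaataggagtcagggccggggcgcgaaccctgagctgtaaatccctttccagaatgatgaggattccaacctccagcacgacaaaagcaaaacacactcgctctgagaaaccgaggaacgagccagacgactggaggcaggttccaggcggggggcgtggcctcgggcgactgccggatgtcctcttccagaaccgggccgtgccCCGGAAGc
MRPS25 (chr3:15065316-15065565, - strand): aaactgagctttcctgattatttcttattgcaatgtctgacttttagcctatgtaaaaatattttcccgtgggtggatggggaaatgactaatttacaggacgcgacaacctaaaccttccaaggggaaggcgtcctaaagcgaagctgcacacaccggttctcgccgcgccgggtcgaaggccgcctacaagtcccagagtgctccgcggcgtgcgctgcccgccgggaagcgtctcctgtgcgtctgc
MRPL33 holds the ETS letters once, at the end of the stretch, and MRPS25 holds none of the 6 motifs in its window. This pair does not stand for the members as a whole. In treated against naive cells the 28 tested members with the ETS letters had a median log2 fold change of 0.02, with 8 higher and 8 lower. The 40 without them had a median of 0.08, with 14 higher and 7 lower, and the difference was not tested.

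The other proteins of the particle and of its pathway were read in the same fit. Of 5 further ribosomal proteins without an MRP symbol (DAP3, CHCHD1, AURKAIP1, PTCD3 and GADD45GIP1) 0 were called in Pt-resistant against naive cells, whereas with inhibitor DAP3 (-0.23) and PTCD3 (-0.28) fell and GADD45GIP1 (0.35) rose. Of 12 translation factors 5 rose and 4 fell with resistance, among them the recycling factor MRRF (0.81) and the elongation factor TUFM (-0.57). Of these 4, 1 fell by 2-fold or more, and the lowest log2 fold change in the list was -1.21. With inhibitor 7 translation factors fell and 3 rose. Of 25 tested assembly factors 9 rose and 7 fell with resistance, and 14 fell and 5 rose with inhibitor. The shares called in either direction were 75% and 83.3% of the translation factors and 64% and 76% of the assembly factors, against 59.1% and 62.4% of all genes tested. The assembly GTPase MTG1 went from 10.9 to 2.70 CPM with inhibitor, a log2 fold change of -2.00 (edgeR adjusted p = 1.49e-10), a larger change than that of any member in this comparison.

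The ribosomal RNAs that the proteins bind were also counted. The sources used here do not say how RNA was selected before the library step, and their counts need not reflect the rRNA in ribosomes. MT-RNR1, the small subunit RNA, was at 999, 1004 and 1178 CPM in naive and 1988, 2381 and 2184 CPM in Pt-resistant libraries, a log2 fold change of 1.04 (edgeR adjusted p = 5.25e-10). MT-RNR2, the large subunit RNA, had a log2 fold change of 0.48 (edgeR adjusted p = 0.00049). With inhibitor neither was called, with log2 fold changes of 0.13 and 0.01.

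By group means, the 13 mRNAs that the ribosome translates moved in the opposite direction to the members' sums, although the MRPL sums of treated and Pt-resistant libraries overlapped. These mRNAs took 7.12% ± 1 of counts in naive, 4.81% ± 0.367 in Pt-resistant and 7.37% ± 1.04 in treated cells (SD, n = 3). With resistance 10 fell and 1 rose, where 29.4% of all genes tested fell and 29.8% rose. With inhibitor 10 rose and 0 fell, where 31.9% of all genes tested rose and 30.5% fell. Groups did not overlap for 9 and 10 of the 13, 69.2% and 76.9%, against 62.5% and 66.5% of all genes. Among 6 genes of mitochondrial transcription, POLRMT (0.72), TFB2M (0.73), TEFM (0.42) and MTERF2 (0.63) rose with resistance, and the last 3 fell with inhibitor (-0.51, -0.62 and -1.29). That is 66.7% and 50% called in either direction, against 59.1% and 62.4% of all genes tested.

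Of 9 regulators of mitochondrial biogenesis 3 rose and 4 fell with resistance, 2 of the latter by 2-fold or more. With inhibitor 1 rose, by 0.92 on the log2 scale, and 6 fell. The share called in either direction was 77.8% in both comparisons, against 59.1% and 62.4% of all genes tested. GABPA (0.38) and GABPB1 (0.52), the subunits of the GABP factor, and MYC (0.37) rose with resistance, while YY1 (-0.19) and the coactivator PPARGC1A (-1.12) were among the 4 that fell. With inhibitor MYC (-0.77), NRF1 (-0.60), GABPB1 (-0.30) and YY1 (-0.31) were among the 6 that fell, and GABPA was not called (-0.02).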

How the data were processed

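Wells were seeded in triplicate, and libraries were made from 1 naive and 1 Pt-resistant OVCAR4 line with a directional kit. The authors aligned reads with STAR, took its counts per gene and deposited them as whole-number counts, not normalised. The sources used here do not name the genome build, annotation, strand column, RNA selection or tool versions. Genes were matched by stable Ensembl ID, which named 61474 of 61487 rows. The members and gene lists were chosen with earlier results of these data known.

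Counts were analysed with edgeR 4.0.16 in R 4.3.3. Genes were kept by filterByExpr (minimum count 10), leaving 14630 genes with 99.88% of counts, and scaled by TMM. Quasi-likelihood fitting of the 9 libraries together gave 3 comparisons, adjusted by Benjamini-Hochberg over all genes tested at a threshold of 0.05. The biological coefficient of variation was 7.66%. DESeq2 1.42.0, limma 3.58.1 (voom), other scalings and filters, a replicate block, each library left out and a 2-fold minimum were alternatives. Sums, ratios and medians over members carry no test. The members named in each comparison and direction were the 5 with the largest change past the threshold, at 5 CPM or more in the higher group and without overlap, with the 3 highest and lowest per length of each subunit. MRPL34, MRPL9, MRPS34, MRPS24 and genes of the lists were named after their values were seen. The 86 other MRP rows, 79 of them pseudogenes, were left out, and pseudogenes took at most 0.0349% of the members' counts. Totals of 14320929 to 19114811 counts set the precision, and no pair of libraries within a group differed by so little as sampling noise. The fit was tested on simulated data.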

Additional observations from a re-analysis of the deposited data

How the results depend on the processing

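No change of a member reversed its direction past the threshold under any alternative. With a 2-fold minimum the counts of members higher and lower fell to 4 and 0 in Pt-resistant against naive cells, 1 and 0 for inhibitor against DMSO, and 2 and 1 in treated against naive cells, by construction. Over the 9 fits that each left out 1 library, the counts were 29 to 35 higher and 5 to 8 lower, 11 to 15 and 28 to 34, and 20 to 23 and 14 to 19 in the same order, with the 5 lower found without Pt-resistant replicate 3. The medians of these fits ran from 0.17 to 0.22 (MRPL) and 0.13 to 0.18 (MRPS) in the first comparison, from -0.1836 to -0.0791 and -0.17 to -0.14 in the second, and from 0.00 to 0.08 and -0.0860 to 0.0426 in the third, where the MRPS median was 0.0426 without naive replicate 1, and in the second the MRPL median was -0.1836 without Pt-resistant replicate 1. With MRPS30 and MRPS18A in the large subunit the MRPS median of the third comparison was 0.0761. Restricted to the 52 members under 10% shared exon bases, an alternative chosen after seeing the data, 4 members were lower in the first comparison, 9 higher in the second and 10 lower in the third, fewer in part because fewer genes were counted, and the MRPL median of the second was -0.1943 and the MRPS median of the third 0.0841. The medians of the third comparison thus had no stable sign, and the cause was not tested. Scaled by library size alone, the third comparison had 19 higher and 22 lower members, against 23 and 18. Of the called members, 12 of 44, 9 of 47 and 10 of 41 lost their call under at least 1 alternative other than the 2-fold minimum.

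Replicate numbers did not pair the libraries: the correlations of deviations between same-numbered libraries ran from -0.1708 to 0.1665, and those between other numbers from -0.2476 to 0.1574. With the replicate block the counts were 37 higher and 8 lower, 15 and 32, and 23 and 18. Depth limits MRPL53, with 15 counts in all, and the members near 1 CPM, MRPL38, MRPL46 and MRPS24, whose counts of 115, 224 and 188 over 9 libraries leave wide errors.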
